A study of Mus musculus with 6 samples.

Results

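Interstitial cells of Cajal are the pacemaker cells of the gut muscle, and 8 genes tied to them, Kit, Kitl, Ano1, Etv1, Prkcq, Gja1, Gjc1 and Thbs4, were followed among the 19938 genes measured in mouse enterospheres. The genes were taken by name, and each was read from the 1 probe set that carried its symbol alone. Etv1 had 2 such probe sets, and the one with the higher mean over the arrays was used. Of the 8 genes, 2 rose with triiodothyronine (T3), none fell and 6 did not pass the test (limma, adjusted p under 0.05 over all genes). Of all genes, 3.1% passed, 2.28% as higher and 0.823% as lower.

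The spheres were free-floating clusters of neural progenitor cells from the gut muscle layer of newborn C57BL/6 mice (P0), grown with epidermal and fibroblast growth factor and then kept in differentiation medium, which contained ascorbic acid-2-phosphate, for 1 day. The T3 group held 3 samples given 100 nM T3 (the labels write nm, read here as nM) for 1 more day, and the control group held 3 samples kept for that day without it. By the labels, proliferation took 4 days in plates and 5 days in dishes, and T3 was given to 50% of the dishes. Each sample pooled 3 mice and was run on 1 expression array. The labels do not say whether the samples of a group came from separate preparations, so p-values measure only the spread between these 6 samples, which may be technical.

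Interstitial cells of Cajal need signalling through the receptor tyrosine kinase KIT, which is switched on by KIT ligand, encoded by Kitl and made by neighbouring cells such as smooth muscle and neurons. The transcription factor ETV1 is stabilised by KIT and MAP kinase signalling in these cells. Their pacemaker current is carried by the calcium-activated chloride channel ANO1, opened by calcium released from internal stores, and spreads to smooth muscle through gap junctions built of connexins such as connexin 43 (Gja1) and connexin 45 (Gjc1). None of the 8 genes is restricted to these cells: Etv1, Gja1 and Kitl are also used by neurons, glia or muscle. The labels name neural progenitor cells and no interstitial cells, and in RNA of whole spheres more cells of a type and more RNA per cell cannot be told apart.

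The promoters of the 2 genes that rose are printed here so that the sequence next to each start site can be read beside its response. Both are the 250 bases before the gene's start, written 5′ to 3′ on the gene's own strand from RefSeq, build GRCm38.p6, with the GC box GGGCGG, or CCGCCC where it lies on the opposite strand, in capitals. That of Ano1 lies at chr7:144738574-144738823 on the minus strand and that of Prkcq at chr2:11172132-11172381 on the plus strand.
Ano1: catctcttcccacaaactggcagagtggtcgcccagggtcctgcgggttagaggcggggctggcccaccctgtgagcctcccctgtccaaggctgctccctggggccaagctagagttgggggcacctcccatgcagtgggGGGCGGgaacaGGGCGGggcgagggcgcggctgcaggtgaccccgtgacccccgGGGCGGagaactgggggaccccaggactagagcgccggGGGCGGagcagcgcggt
Prkcq: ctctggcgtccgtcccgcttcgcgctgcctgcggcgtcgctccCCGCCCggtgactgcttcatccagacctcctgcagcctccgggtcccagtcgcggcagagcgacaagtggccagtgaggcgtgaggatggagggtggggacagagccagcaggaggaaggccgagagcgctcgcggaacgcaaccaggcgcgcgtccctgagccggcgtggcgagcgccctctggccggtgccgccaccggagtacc
The Ano1 sequence holds 4 GC boxes and the Prkcq sequence holds 1. Over windows of 300 bases, from 250 before to 50 after a start, at least 1 GC box was found for 5 of the 7 genes with a window (Kit, Kitl, Ano1, Prkcq and Thbs4, but not Etv1 or Gja1) and in 35.7% of all 32851 windows. The hexamer AGGTCA, the consensus half-site of thyroid hormone receptors, was searched on both strands. It was found in 0 of the 9 windows of these genes and in 16.3% of all windows, and its direct repeat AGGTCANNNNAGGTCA was found in 0 of the 9 and in 0.0152% of all. No such match says only that these letters are not in these windows.

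All 8 genes gave signal above the median gene in control spheres. The control mean of Kit lay at percentile 89.4 of all genes, that of Ano1 at 74.8, that of Prkcq at 76.0 and that of Etv1 at 98.6, and the other 4 lay between 70.1 for Kitl and 87.4 for Gja1. The deposited values carry no detection calls, and such a percentile describes the brightness of a probe set, not the number of transcripts. Kit also marks mast cells and melanocytes, and 1 of 10 mast cell markers and 1 of 6 melanocyte markers lay above the median gene, in both cases Mitf, at a control log2 value of 7.74 ± 0.25 (SD, n = 3). The next brightest of each list were Gata2 at 5.99 and Mlana at 5.94. The summed signal of the 10 mast cell markers, on the linear scale, was 461 to 495 on control arrays and 442 to 471 on T3 arrays. The summed signal of the 8 genes was 6563 to 7133 in controls and 7327 to 7623 with T3. Etv1, the brightest at a control log2 mean of 11.46, adds the most to the level of this sum, though not the most to its rise. Of the 8 genes, 6 were not called. The sums of the 2 lists rest on different probe sets, so their sizes cannot be compared.

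**Figure D1:**
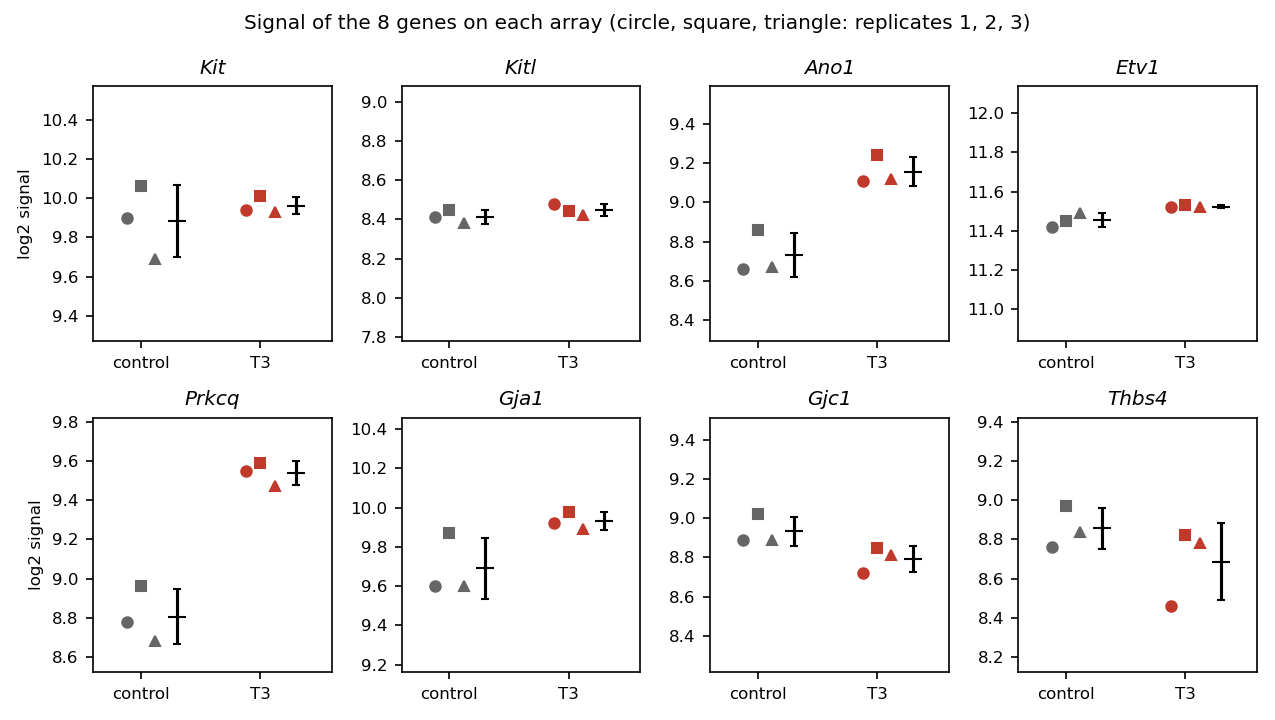
Log2 signal of each gene on the 3 control arrays (grey) and the 3 T3 arrays (red), with the mean and SD of each group in black; every panel spans the same width of scale. Prkcq and Ano1 stand apart between groups, while the control values of Kit reach from 9.69 to 10.06 and enclose all T3 values.

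Kitl and Kit, ligand and receptor, were not called. Kitl, the ligand, had log2 signals of 8.41, 8.45 and 8.38 on control arrays 1 to 3 and 8.48, 8.44 and 8.42 on T3 arrays 1 to 3. The groups overlapped and T3 array 1 alone lay above all controls. The log2 change, always T3 minus control, was 0.03 ± 0.07 (SE) with a 95% confidence interval of -0.12 to 0.18 (limma, adjusted p = 0.939), and its sign turned when the arrays were normalized by quantiles again or centred on the 75th percentile. Kit, the receptor, had log2 signals of 9.90, 10.06 and 9.69 in controls and 9.94, 10.01 and 9.93 with T3. All 3 T3 values lay inside the range of the controls, which differed among themselves by 0.36. The change of Kit was 0.08 ± 0.10 (SE), 1.05-fold, with an interval of -0.15 to 0.30 (limma, adjusted p = 0.854). Without control array 3 the change was -0.02.

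Etv1, the transcription factor downstream of KIT, was not called either, although its groups did not overlap. Its log2 signals were 11.42, 11.45 and 11.49 in controls and 11.52, 11.53 and 11.52 with T3. The 3 T3 values were nearly equal and lay just above the highest control. The change was 0.07 ± 0.06 (SE), with an interval of -0.08 to 0.22 (limma, adjusted p = 0.777). The second probe set of Etv1 gave 11.01, 11.07 and 10.87 in controls and 11.06, 10.97 and 10.92 with T3, which overlap, and a change of -0.0035 ± 0.08 (SE). The probe sets of Etv1 thus differed in the sign of a change that passed in neither.

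Genes of KIT signalling and of the MAP kinase path did not pass the test in most cases, and the 2 that passed were lower. The list had 27 measured genes, of which 0 passed as higher and 2 as lower and 25 did not pass (8 had an unadjusted p under 0.05, beside 13.7% of all genes), beside 2.28% of all genes that rose and 0.823% that fell. The median log2 change of the list was -0.10, against 0.0088 for all genes, and 10 of 27 had a change above 0, against 53.3% of all genes. Spry4, a feedback inhibitor of receptor tyrosine kinase signalling, had log2 signals of 10.37, 10.50 and 10.50 in controls and 10.06, 10.00 and 10.06 with T3, a change of -0.41 ± 0.07 (SE; limma, adjusted p = 0.0191). Etv4, an ETS transcription factor of the same subfamily as ETV1, went from 6.88, 6.84 and 7.12 to 6.15, 6.20 and 6.58, a change of -0.64 ± 0.13 (SE; limma, adjusted p = 0.0348). In both genes every T3 array lay below every control array. Leaving out T3 array 2, control array 1 or control array 3 ended both calls. Leaving out T3 array 3 also ended that of Spry4, whose adjusted p reached 0.0927, and leaving out T3 array 1 that of Etv4, whose adjusted p reached 0.133.

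Ano1, the chloride channel gene, rose 1.34-fold. Its log2 signals were 8.66, 8.86 and 8.67 in controls and 9.11, 9.24 and 9.12 with T3. Every T3 array lay above every control array, and control array 2 was the highest control. The change was 0.43 ± 0.08 (SE), with an interval of 0.24 to 0.61 (limma, adjusted p = 0.0291). Over the 6 fits that left out 1 array the change ran from 0.39 to 0.49, and the call held in 1 of them, the fit that left out control array 2; adjusted p reached 0.145. Prkcq, which encodes protein kinase C theta, an isoform found in interstitial cells of Cajal and in T cells, rose 1.66-fold. Its log2 signals were 8.78, 8.96 and 8.68 in controls and 9.55, 9.59 and 9.47 with T3. The lowest T3 array lay well above the highest control, and the change was 0.73 ± 0.09 (SE), with an interval of 0.53 to 0.93 (limma, adjusted p = 0.00441). Prkcq passed in all 6 such fits, with adjusted p reaching 0.0318. The change of Prkcq lay at percentile 99.3 of all genes and that of Ano1 at 97.6.

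**Figure D2:**
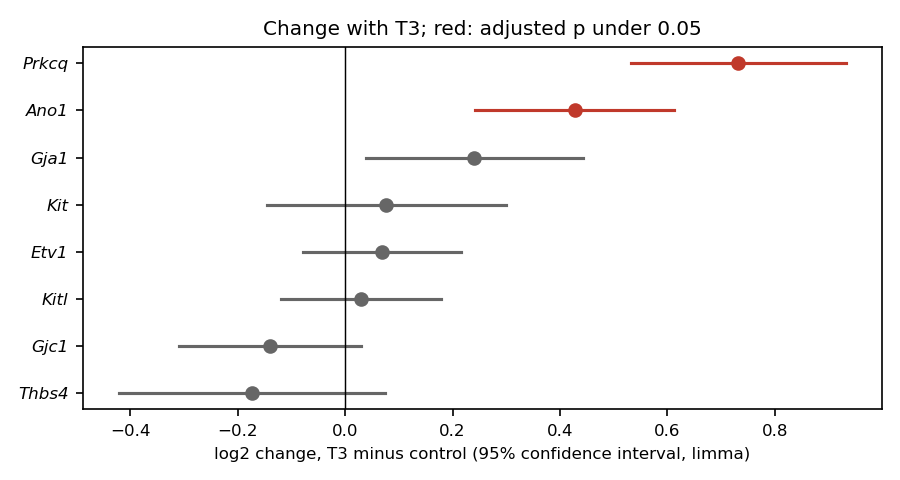
Log2 change (T3 minus control) of each gene with its 95% confidence interval from limma, in order of size. The intervals of Prkcq, Ano1 and Gja1 lie above 0, while Gja1 did not pass after adjustment over all genes, and those of the other 5 genes include 0.

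Ano1 and Prkcq were also set against Kit, the receptor gene, on the same array. The log2 signal of Ano1 minus that of Kit was -1.24, -1.20 and -1.02 in controls and -0.83, -0.77 and -0.80 with T3, a rise of 0.35. For Prkcq minus Kit the values were -1.13, -1.10 and -1.01 in controls and -0.40, -0.42 and -0.46 with T3, a rise of 0.66. In neither case did the groups overlap. Both exact permutation tests (two-sided, n = 3 per group) gave p = 0.1, and 0.1 after Benjamini-Hochberg adjustment over the 2 tests, which is the smallest p that 3 arrays against 3 can give. The level of such a difference depends on the probes and has no meaning of its own; only its change between groups can be read. Relative to Kit, Ano1 and Prkcq stood higher on every T3 array than on any control array. These were the 2 called genes, and Kit itself changed by only 0.08. The differences therefore largely repeat the changes of Ano1 and Prkcq and are no separate evidence.

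**Figure D3:**
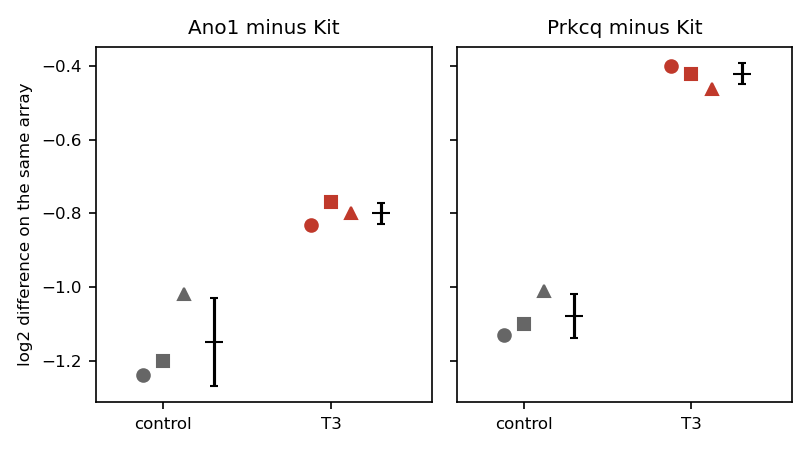
Log2 signal of Ano1 (left) and of Prkcq (right) minus that of Kit on the same array, for control (grey) and T3 arrays (red), with group mean and SD in black. The T3 arrays lie between -0.83 and -0.77 for Ano1 and between -0.46 and -0.40 for Prkcq, all above the controls.

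No relative of these 2 genes was called higher in the limma test of all 6 arrays without weights. None of 8 other measured anoctamin genes passed the limma test, and 0 had an unadjusted p under 0.05. Their log2 changes ran from 0.0035 to 0.12, and the 2 of smallest p were Ano7 at 0.12 and Ano4 at 0.09. In controls only 3 of these 8 lay above the median gene, and Ano7 and Ano4 were not among them. Array background compresses the changes of dim genes, so the lack of calls in the dim ones says little. Of 7 other protein kinase C genes, 0 rose, 1 fell and 6 did not pass, with a median change of -0.08. Of all genes, 2.28% rose and 0.823% fell. Without control array 2, 1 of the 7 was called higher, beside 3.21% of all genes called in either direction. With arrays weighted by quality, 2 were called higher and 2 lower, beside 17.8% of all genes called. Prkcd, protein kinase C delta, was lower at 7.81, 7.78 and 7.87 with T3 against 8.07, 8.18 and 8.18 in controls, a change of -0.32 ± 0.07 (SE; limma, adjusted p = 0.0482). This call failed in all 6 fits that left out 1 array, where adjusted p reached 0.194, and also failed with the replicate number as a block and with each probe set tested separately. Whether the changes of Ano1 and Prkcq differ from those of their relatives was not tested.

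The connexin genes Gja1 and Gjc1 had changes of opposite sign, and neither passed. Gja1, connexin 43, had log2 signals of 9.60, 9.87 and 9.60 in controls and 9.92, 9.98 and 9.89 with T3. The T3 arrays lay above all controls, but the lowest of them only just above control array 2. The change was 0.24 ± 0.09 (SE), with an interval of 0.04 to 0.44 (limma, adjusted p = 0.254). With array quality weights, which gave control array 1 a weight of 6.18 and the other 5 arrays weights of 0.414 to 1.69, Gja1 passed at 0.32 (adjusted p = 0.00699). Gjc1, connexin 45, had log2 signals of 8.89, 9.02 and 8.89 in controls and 8.72, 8.85 and 8.81 with T3, all below the controls. Its change was -0.14 ± 0.07 (SE), with an interval of -0.31 to 0.03 (limma, adjusted p = 0.488). Whether the changes of Gja1 and Gjc1 differ was not tested. Of 18 further genes of connexins, pannexins and the junction scaffold Tjp1, none passed limma and 0 had an unadjusted p under 0.05. The changes of these 18 ran from -0.16 to 0.14, and the 2 of smallest p were Gja6 at 0.14 and Gja4 at -0.13. In controls only 6 of the 18 lay above the median gene, and Gja6 and Gja4 were not among them, so the lack of calls in the dim ones says little.

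Thbs4, a secreted thrombospondin of the matrix, was not called. Its log2 signals were 8.76, 8.97 and 8.84 in controls and 8.46, 8.82 and 8.78 with T3. T3 array 1 lay below all controls while the other 2 T3 arrays fell inside their range. The change was -0.17 ± 0.11 (SE), with an interval of -0.42 to 0.08 (limma, adjusted p = 0.592), and it was -0.06 without T3 array 1. The other thrombospondin genes and their receptors gave 0 calls among 8 measured by limma. Of them, 3 had an unadjusted p under 0.05, beside 13.7% of all genes. The 2 of smallest p were Thbs3 at 0.33 and Thbs1 at 0.27, with adjusted p of 0.134 and 0.201 (limma).

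Over the arrays, 5 of the 8 genes had groups that did not overlap, 4 with T3 higher (Ano1, Etv1, Prkcq and Gja1) and 1 with T3 lower (Gjc1). Of all genes, 19.5% had groups without overlap, 11.9% with T3 higher and 7.55% with T3 lower. An unadjusted p under 0.05 was reached by 3 of the 8, Prkcq, Ano1 and Gja1, and by 13.7% of all genes. The median change of the 8 genes was 0.07, against 0.0088 over all genes. Control array 2 was the highest control for 7 of the 8 genes, all but Etv1, and for 38.9% of all genes. The SD over the T3 arrays was smaller than over the control arrays for 7 of the 8, all but Thbs4, and for 56.5% of all genes. The control ranges of Kit, Ano1, Prkcq and Gja1 were 0.36, 0.20, 0.28 and 0.27, against T3 ranges of 0.09, 0.13, 0.12 and 0.08.

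Genes that serve the pacemaker through calcium stores and ion transport moved mostly upwards where they passed. Among the 20 that were measured, 5 were called higher and 1 lower, beside 2.28% and 0.823% of all genes. The median change was 0.10, against 0.0088 for all genes. Slc12a2, the sodium-potassium-chloride cotransporter that loads cells with the chloride that ANO1 releases, rose from 8.91, 9.21 and 8.95 to 9.87, 9.68 and 9.60, a change of 0.69 ± 0.11 (SE; limma, adjusted p = 0.0126), with no overlap. Ryr2, a calcium release channel of internal stores, rose from 6.01, 5.98 and 6.10 to 6.79, 6.67 and 6.65, also with no overlap, by 0.67 ± 0.07 (SE; limma, adjusted p = 0.0032). Hcn2, a pacemaker channel subunit, rose by 0.67 and Cacna1c, the pore of the L-type calcium channel, by 0.48. The fifth gene that rose was Kcnh2, a potassium channel, at 0.41, and the gene that fell was Cacna1g, a T-type calcium channel, at -0.60; these 2 lay outside the rule for named genes and were chosen after their values were seen. In the 6 fits that left out 1 array, Ryr2 and Hcn2 kept their calls throughout. Slc12a2 failed when control array 1 was left out (adjusted p = 0.0700). Cacna1c failed when T3 array 2, T3 array 3 or control array 1 was, with adjusted p reaching 0.0747. Kcnh2 held in 1 of the 6, that leaving out control array 3, with adjusted p reaching 0.132, and failed with the replicate number as a block. Cacna1g held in none, with adjusted p reaching 0.102.

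Genes through which nerves act on interstitial cells of Cajal also gave rises. Among the 15 that were measured, 4 were called higher and 0 lower, beside 2.28% and 0.823% of all genes, and 5 had an unadjusted p under 0.05, beside 13.7% of all genes. The median change was 0.12, against 0.0088 for all genes. Htr2b, a serotonin receptor, had log2 signals of 6.97, 7.27 and 6.95 in controls and 8.16, 8.51 and 8.31 with T3, a 2.40-fold rise with a change of 1.26 ± 0.12 (SE; limma, adjusted p = 0.00157). Chrm3, the M3 muscarinic receptor for acetylcholine, had a control mean of 7.87 ± 0.13 (SD, n = 3) and a T3 mean of 8.69 ± 0.014 (SD, n = 3), a 1.76-fold rise (limma, adjusted p = 0.0019). Every T3 array of both genes lay above every control, and both kept their calls whichever array was left out. Nos1, the neuronal nitric oxide synthase, which belongs to the nerves and not to the cells they act on, rose by 0.50, and Pde3a, a cyclic nucleotide phosphodiesterase, by 0.47. Of the 6 fits that left out 1 array, these 2 calls held in that leaving out control array 2, and adjusted p reached 0.151. Nos1 also failed with the replicate number as a block. Pde3a also failed when arrays were centred on either the median or the 75th percentile, and with each probe set tested separately. Htr2b, Chrm3, Slc12a2 and Nos1 are used by smooth muscle, neurons or other cells as well.

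**Figure D4:**
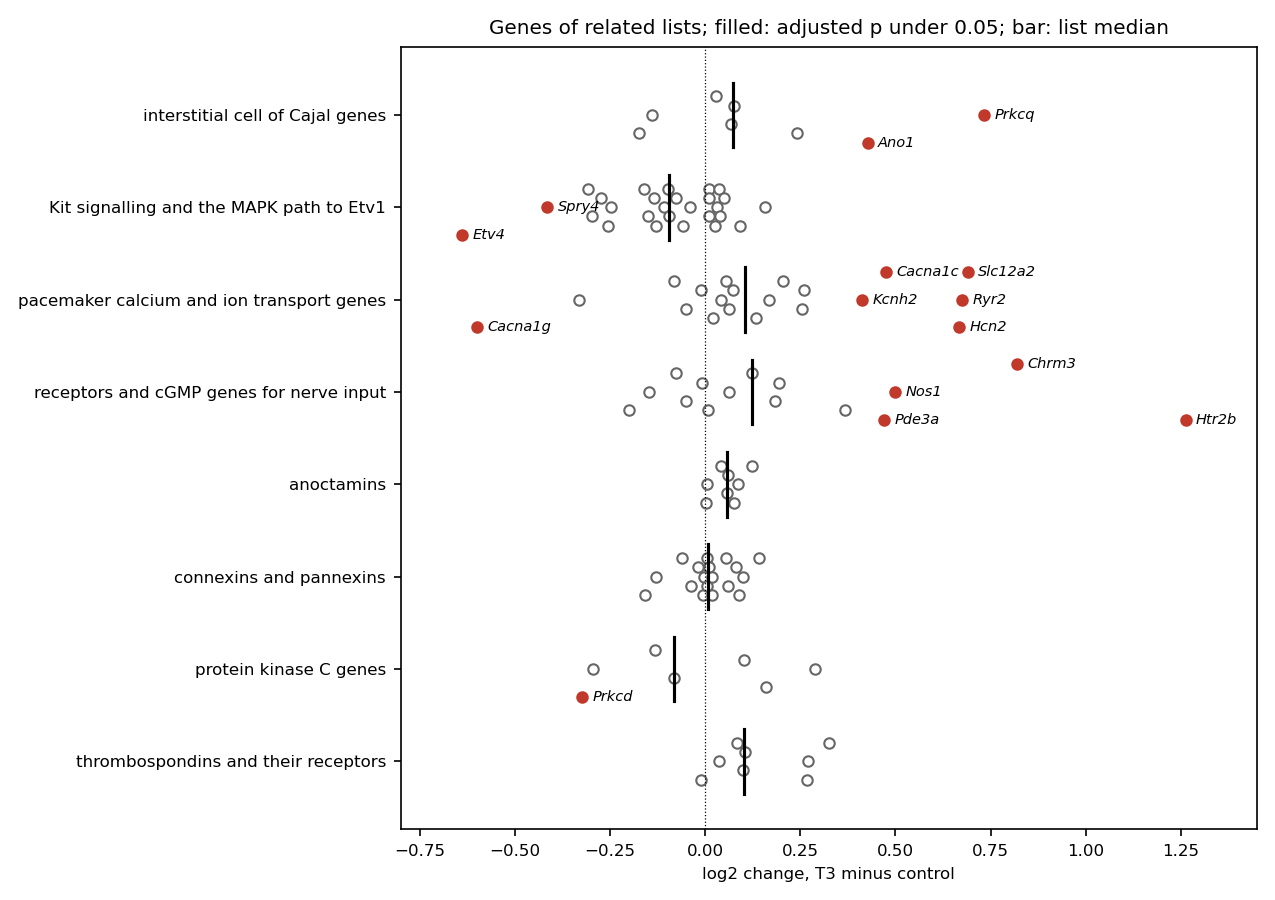
Log2 change (T3 minus control) of every measured gene of the interstitial cell of Cajal genes and 7 related lists, with the list median as a bar; filled red points are genes with an adjusted p under 0.05 over all genes (limma). Filled points lie to the right for pacemaker and nerve input genes, except Cacna1g, and to the left for Spry4, Etv4 and Prkcd.

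Among markers of other cells of the gut muscle, some were called, in either direction, and most were not. Of all genes, 2.28% were called higher, 0.823% were called lower and 13.7% had an unadjusted p under 0.05. Of 6 measured genes known to respond to T3, Klf9, Hr and Thrb rose, by 1.86, 1.92 and 1.30, and 3 did not pass: Dio3 at 0.54, and Thrsp and Dio1 at 0.03 and 0.01, with signs that turned under rescaling. Those 3 lay outside the rule for named genes. Of 9 enteric neuron markers, 2 rose, Prph at 0.94 and Snap25 at 0.33, and 7 did not pass. The summed linear signal of the 9 was 11940 to 13406 on control arrays and 14164 to 15258 on T3 arrays, with Stmn2 and Ret the brightest. Of the 9 changes, 7 lay above 0, with a median of 0.25. The rise was not shared by all: Elavl3, Uchl1, Elavl4 and Tubb3, outside the rule for named genes, changed by -0.13, -0.02, 0.02 and 0.03. Snap25 held in none of the 6 fits that left out 1 array (adjusted p reached 0.156), and failed with the replicate number as a block and when arrays were centred on either the median or the 75th percentile. Of 10 smooth muscle markers, 2 rose and 2 fell, and the summed signal was 2534 to 2805 in controls and 2438 to 2498 with T3. Acta2 and Smtn were the brightest, and Acta2, which fell, adds the most to this sum. The list as a whole did not fall with it: 7 of the 10 changes lay above 0, with a median of 0.27. In the 6 fits Tagln, at -0.72, held throughout, Acta2 at -0.38 and Myh11 at 0.60 held in none (adjusted p reached 0.165), and Myocd at 0.54 held in 2, those leaving out T3 array 3 or control array 3 (adjusted p reached 0.134). Myocd and Acta2 failed with the replicate number as a block, Myh11 under all 3 rescalings and with each probe set tested separately, and Myocd when arrays were centred on the 75th percentile. Of 6 markers of PDGFRA-positive interstitial cells, the neighbours of interstitial cells of Cajal in the muscle, Fgf10 rose 2.26-fold and 5 did not pass, among them the brightest, Foxf1 at -0.14 and Pdgfra at 0.03; the summed signals were 4303 to 4345 in controls and 4099 to 4669 with T3. Fibroblast markers (8 measured, with Dcn and Postn the brightest) had 1 rise, Thy1 at 1.24, and 1 fall, Twist1 at -0.49, which held in 1 of the 6 fits, that leaving out control array 1 (adjusted p reached 0.117), and failed with the replicate number as a block; they summed to 15342 to 16578 and 16057 to 16797. None of 6 glia markers, led by Erbb3 and Sox10, passed limma and 0 had an unadjusted p under 0.05. Markers of macrophages (7 measured, Cd68 and Tyrobp the brightest) and endothelium (6 measured, Kdr and Cdh5 the brightest) lay below the median gene in every case. Kdr fell by 0.41, a call that failed when T3 array 2, T3 array 3 or control array 1 was left out (limma, adjusted p reached 0.0776). The other 5 endothelium markers had changes above 0, Cdh5 at 0.42, but none of them passed, and the median of the 6 was 0.14. The part of these cells in the values of Ano1, Prkcq and the other genes was not tested.

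By profile over the 6 arrays, the genes most like Kit were Gpbp1l1, Kcnd2 and Nkap, with root mean square distances of 0.015, 0.022 and 0.023 on the log2 scale after each gene was centred on its own mean, against a median distance of 0.16 over all genes. Each of them, like Kit, had its highest control value on control array 2, its lowest on control array 3 and T3 values between them. The genes most like Ano1 were Dab2, Denn2b and Kcnk3, at 0.033, 0.034 and 0.037 against a median of 0.25. These 3 rose with T3 by 0.46, 0.38 and 0.45, and like Ano1 they kept their calls in 1 of the 6 fits that left out an array, that leaving out control array 2 (limma, adjusted p reached 0.165). Dab2 also failed when probe sets were averaged per gene, and Denn2b with the replicate number as a block. None of the other 7 genes was among the 3 nearest of either, which says little where 19938 genes were searched. The distances rest on 6 arrays and on the contrast between groups. Because the named genes were picked for their profiles, their like array order, rises and calls follow from that choice and are no separate evidence.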

How the data were processed

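Total RNA of 6 enterosphere samples was hybridised to Affymetrix mouse arrays, 1 per sample. The authors deposited log2 expression values for 35556 probe sets, with RMA and Partek version 6.5 named in the submitters' processing notes; the sources used here give neither their settings nor the genome build. RMA as usually run aligns the arrays by quantiles, which removes any change shared by most genes, and array background compresses the changes of dim genes. By the platform annotation, 21789 probe sets had 1 symbol, 1621 had several and 12146 were not listed. The probe set of highest mean stood for each of 19938 genes. Listed genes without one were not analysed here. T3 minus control was tested with R 4.3.3 and limma 3.58.1 (eBayes after lmFit, two-sided, Benjamini-Hochberg over all genes, called at adjusted p under 0.05); the procedure was tested on simulated data. SE and 95% confidence intervals come from limma, and SD is over the 3 arrays of a group.

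The text names the 8 genes. Of each related list it names the called genes up to 4 of smallest p, or the 2 of smallest p where none was called. Of each marker list it names the 2 brightest genes and called ones. It also names Klf9, Hr, Thrb and the 3 profiles nearest to Kit and to Ano1. The genes and lists were chosen with earlier results of these data known, and the promoter motifs after the values were seen. Alternatives were renewed scaling, filters on dim genes, other uses of probe sets, other variance models, array weights, the replicate number as a block and leaving out each array.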

Additional observations from a re-analysis of the deposited data

How the results depend on the processing

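The 2 calls among the 8 genes, Prkcq and Ano1, were kept under the replicate block, all 3 scalings, both filters on dim genes, both other uses of probe sets, and trend with robust fitting; array quality weights added Gja1. Over all genes, array quality weights gave 3548 calls in place of 618. Leaving out 1 array gave 191 to 640 calls over all genes and 1 to 2 among the 8. The sign of Kitl turned to -0.0100 after a renewed quantile normalization and -0.0014 after centring on the 75th percentile. Leaving out 1 array moved Kit between -0.019 (without control replicate 3) and 0.16. The cause was not tested. The change of Ano1 against Kit was 0.30 to 0.42 without any 1 array, and that of Prkcq against Kit 0.63 to 0.69.

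With the replicate number as a block 472 genes and 2 of the 8 were called, and the sign flips of the 3 same-numbered differences gave an exact p of 0.25 for both comparisons with Kit, the smallest they allow. The labels do not say that equal numbers share a preparation, so the numbers were not taken as pairs. The deviations of same-numbered arrays correlated at 0.18, 0.017 and 0.00017, and not every array correlated best with its own number. With 3 arrays per group, centred within each group, such correlations cannot show whether the numbers are pairs. The number of arrays limits the precision, and signal over background could not be judged.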
